A study of Mus musculus with 15 samples.

Results

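The late change with control beads was followed in mouse mammary gland organoids, small balls of epithelium cut from the gland and grown in culture. BSA 72 h libraries were set against BSA 36 h libraries, which makes 6 of the 15 libraries in the series, 3 per group, chosen by their titles. All 54456 genes of the count table were considered, and 18140 passed the filter on low counts and were tested. Both groups were of WT genotype and were labelled as mammary epithelial cells of the mammary gland. They were kept in DMEM/F12 with L-Ala-Gln, ITS (insulin, transferrin and selenium) and penicillin with streptomycin. Organoids of both groups sat beside beads soaked in BSA, an albumin that serves as the carrier protein control for FGF10. FGF10, a growth factor made by the stroma, was on the beads of the other arm. The other groups were FGF10 72 h, FGF10 36 h and 0 h, with 3 libraries each. Titles of the FGF10 72 h libraries spell the factor FGF0, so their treatment label was followed. The labels do not say which libraries came from separate animals or cultures, so p-values measure only the spread between these libraries, which may be technical.

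Mammary epithelium has an inner luminal layer, which can make milk proteins, and an outer basal or myoepithelial layer, which contracts and lays down basement membrane. In the gland both lie in a fat pad with adipocytes, fibroblasts, vessels and macrophages, and cells of these kinds can be carried into organoid preparations. Gene counts from whole organoids add up the RNA of all of them.

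The epithelial label held by its markers. Epcam, a surface protein of epithelial cells, stood at 1588, 1606 and 1479 CPM (counts scaled to a common library total) in BSA 72 h and 2147, 1960 and 1913 CPM in BSA 36 h. The basal keratin gene Krt14 stood at 3392, 3690 and 3917 CPM in BSA 72 h and 2806, 3274 and 3207 CPM in BSA 36 h. The luminal keratin gene Krt8 stood at 2266, 2477 and 2390 CPM in BSA 72 h and 2489, 4548 and 3713 CPM in BSA 36 h. None of these passed the test, and Krt5, the partner of Krt14, moved by 0.03 ± 0.15 on the log2 scale.

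Depth was 15784623 to 17763860 counts in BSA 72 h and 15581146 to 18732149 counts in BSA 36 h. The BSA 72 h libraries were more alike, with correlations of log2 CPM of 0.984 to 0.988, against 0.963 to 0.978 within BSA 36 h. BSA 72 h replicates 2_1 and 2_2 share a number and were the closest pair. Their mean chi-square per gene was 4.60, against 10.5 and 12.9 for the pairs with replicate 3 and 23.3 to 119 for pairs within BSA 36 h. They differed by more than sampling noise and were kept as separate libraries, but whether they share a culture is not given in the labels. BSA 36 h replicate 1 stood farthest from the other BSA 36 h libraries. At 0 h, replicate 1 differed from the other libraries of its group in proliferation genes, and it bears on the BSA test through the filter and the shared estimate of spread, and on the 0 h levels given below.

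Between 36 h and 72 h with BSA beads, Adipoq (a fat-cell hormone), Slc40a1 (an iron exporter), Nos2 (a nitric oxide synthase) and Col5a1 (a collagen chain) rose. Csn3 (a milk casein), Plaur (the urokinase receptor) and Spp1 (osteopontin) fell. Of 18140 genes, 85 passed edgeR's quasi-likelihood test at an adjusted p under 0.05, which is 0.469% of genes tested. Of these 59 rose, 0.325% of genes tested, and 26 fell, 0.143% of genes tested. The change was at least 2-fold in 48 of the 59 and in 13 of the 26. In all 85 the 3 and 3 libraries did not overlap. Adjusted p-values lay between 0.0225 and 0.0499, and 391 genes lay under 0.1. Over all tested genes the median log2 difference was -0.01 and the median absolute difference 0.25.

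The number of calls depended strongly on single libraries. Without BSA 72 h replicate 2_1, 2_2 or 3, or without BSA 36 h replicate 2 or 3, edgeR called 0 genes, while 2084 to 2630 genes had an unadjusted p under 0.05. It called 30 genes without BSA 36 h replicate 1 and 538 without 0 h replicate 1. With replicates 2_1 and 2_2 summed into 1 library it called 0, with 2138 genes at an unadjusted p under 0.05. Other tools called more, 584 genes by the DESeq2 Wald test and 2683 by limma voom with sample weights. The direction of all 85 genes was the same under all 15 alternatives. As the groups did not overlap for these genes, leaving out or summing BSA libraries could hardly have turned it. None of the 85 passed the test under all 15 alternatives. The calls below are therefore those of 1 fit, given with the value in every library.

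**Figure D1:**
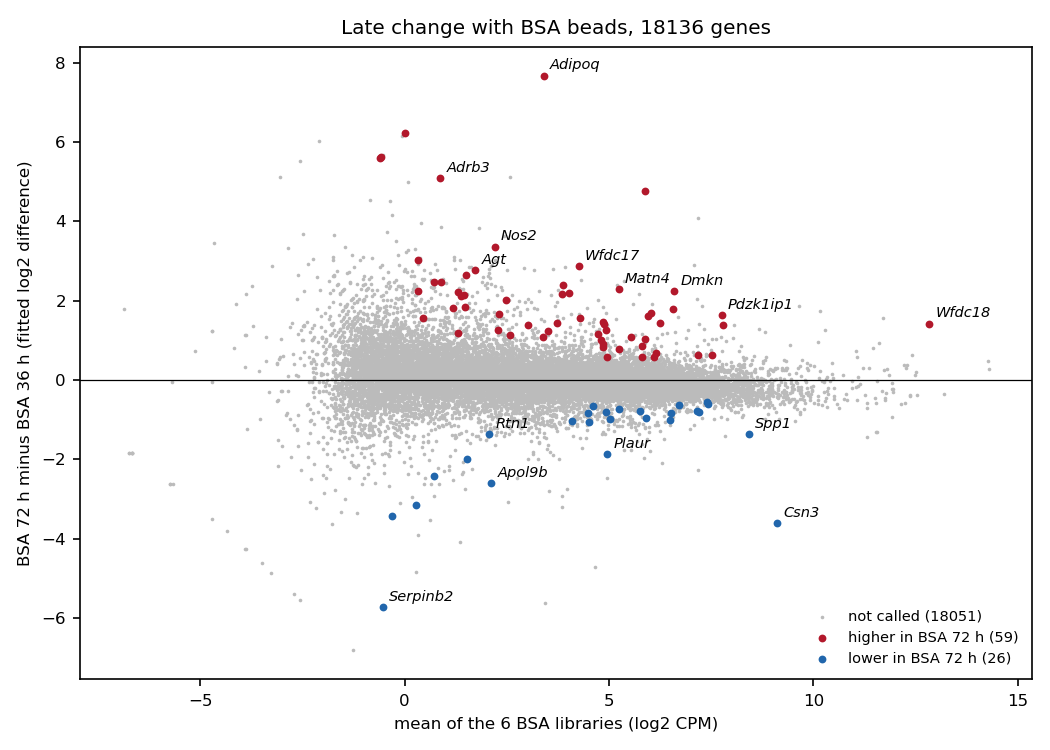
Difference between BSA 72 h and BSA 36 h (fitted log2, vertical axis) against the mean level of the 6 BSA libraries (log2 CPM, horizontal axis) for 18136 genes; 4 tested genes at 0 in all BSA libraries are not drawn. Red points are the 59 genes called higher and blue points the 26 called lower, with Adipoq highest at 7.67 and Serpinb2 lowest at -5.72.

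Promoters of 3 called genes described below are shown, as Adipoq had the largest named rise, Wfdc18 rose and Plaur fell. Each runs from 250 bases before to 50 bases after the start, 5′ to 3′ on the gene's strand, from RefSeq on GRCm38.p6. That build is older than the GRCm39 of the submitters' processing notes, and no count was placed by these coordinates. Capitals mark matches on either strand. The AP-1 motif was searched as TGANTCA. The box named for CCAAT was searched by those letters. The TATA box was searched as TATAAA, and no motif overlapped another.
Adipoq, at chr16:23146286-23146585 on the plus strand, held 3 CCAAT matches, at 34, 27 and 7 bases before the start.
Adipoq: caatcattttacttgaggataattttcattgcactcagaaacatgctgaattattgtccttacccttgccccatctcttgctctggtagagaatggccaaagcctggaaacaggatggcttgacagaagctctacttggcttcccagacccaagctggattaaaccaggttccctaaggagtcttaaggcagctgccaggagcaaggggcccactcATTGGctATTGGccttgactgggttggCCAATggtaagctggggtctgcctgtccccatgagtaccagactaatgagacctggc
Wfdc18, at chr11:83708754-83709053 on the plus strand, held a TATAAA match at 31 bases before the start.
Wfdc18: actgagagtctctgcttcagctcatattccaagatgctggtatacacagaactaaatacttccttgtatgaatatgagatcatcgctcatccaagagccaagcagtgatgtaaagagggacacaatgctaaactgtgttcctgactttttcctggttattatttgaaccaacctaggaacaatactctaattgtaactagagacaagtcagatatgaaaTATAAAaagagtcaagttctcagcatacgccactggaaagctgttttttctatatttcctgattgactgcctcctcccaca
Plaur, at chr7:24462233-24462532 on the plus strand, held a TGANTCA match at 69 bases before the start.
Plaur: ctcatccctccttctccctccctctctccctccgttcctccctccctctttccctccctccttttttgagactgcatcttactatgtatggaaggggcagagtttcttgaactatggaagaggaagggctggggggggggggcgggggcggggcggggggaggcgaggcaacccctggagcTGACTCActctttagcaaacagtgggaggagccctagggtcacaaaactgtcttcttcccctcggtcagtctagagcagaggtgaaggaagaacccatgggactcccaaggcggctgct
Of the 85 called genes, 55 had a promoter in the table. AP-1 letters were found in 6 of them, 10.9%, against 6.79% of tested genes with a promoter. CCAAT was found in 45.5% of called and 42.7% of tested genes, and TATAAA in 12.7% and 9.41%. By direction, AP-1 letters were in 3 of 42 genes that rose, 7.14%, and 3 of 13 that fell, 23.1%. CCAAT was in 40.5% and 61.5%, and TATAAA in 9.52% and 23.1%. With 13 promoters the shares of genes that fell rest on few matches. Over all 32851 promoters, counted by promoter and not by gene, the shares were 7.81%, 37.4% and 13.6%. A match is a description of letters in the window, not a bound site.

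The largest named rise was in a hormone of fat cells. Adipoq, which encodes adiponectin, stood at 21.5, 25.04 and 17.1 CPM in BSA 72 h and at 0, 0.28 and 0 CPM in BSA 36 h. Every BSA 72 h library held it and only 1 BSA 36 h library did, with 5 counts in all, so the fitted rise of 7.67 ± 1.45 on the log2 scale (edgeR adjusted p = 0.0484) rests on those few counts. Adrb3, the beta-adrenergic receptor of adipocytes, stood at 3.23, 3.06 and 4.39 CPM in BSA 72 h and at 0.06, 0 and 0.24 CPM in BSA 36 h (log2 5.09 ± 0.84, edgeR adjusted p = 0.0313). Both genes were near absent in every BSA 36 h library.

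The adipocyte list had 20 genes, of which 16 were tested, 2 rose and 0 fell. All 16 were higher in BSA 72 h and 14 did not overlap between groups, where 14.3% of all tested genes were higher without overlap. The list median was 2.14 on the log2 scale, against -0.01 over all genes. It was 1.81 without BSA 36 h replicate 1 and 2.87 without BSA 36 h replicate 2. The called members numbered 0 without any 1 BSA library or with 2_1 and 2_2 summed. They numbered 7 with the BSA groups alone and 12 with limma voom. Fabp4, a fatty acid carrier, stood at 269, 262 and 288 CPM in BSA 72 h and at 15.5, 32.3 and 0.30 CPM in BSA 36 h. It did not pass the test (log2 4.09 ± 1.66, edgeR adjusted p = 0.261), and the BSA 36 h libraries were spread widely although the groups did not overlap. Plin1, a lipid droplet coat protein, stood at 8.83, 9.25 and 11.9 CPM in BSA 72 h and at 0.54, 1.79 and 0.06 CPM in BSA 36 h (edgeR adjusted p = 0.123). Pparg, the master regulator of fat-cell formation, stood at 13.5, 12.9 and 17.1 CPM in BSA 72 h and at 4.70, 11.5 and 7.79 CPM in BSA 36 h (edgeR adjusted p = 0.378). The summed level of the list was 605 to 623 CPM in BSA 72 h, a large part of it Fabp4, and 99.9 to 194 CPM in BSA 36 h. The untested members were Retn, with 50 counts in BSA 72 h and 4 in BSA 36 h, Acvr1c, Car3 and Pck1, which was at 0 in all 6 libraries. In bulk libraries a larger share of a cell type and more RNA per cell of it cannot be told apart.

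The endothelial, pericyte, fibroblast and macrophage lists also had medians above 0. The erythrocyte list had a median of -1.39, which turned to 0.21 with the BSA groups alone, and the skeletal muscle, brown fat and nerve lists had medians of -0.03, 0.01 and 0.04. Over all tested genes, 14.3% were higher without overlap. All 20 endothelial genes, the markers of vessel lining, were tested, 0 passed the test, 20 were higher and 14 did not overlap, with a list median of 2.14. Their sum was 165, 170 and 385 CPM in BSA 72 h and 56.8, 135 and 42.2 CPM in BSA 36 h. BSA 72 h replicate 3 held more than the other libraries, and without it the list median was 1.46, against 3.45 without BSA 36 h replicate 2 and 3.36 with limma voom. Cldn5, the tight junction claudin of vessels, stood at 4.41, 5.66 and 25.1 CPM in BSA 72 h and at 0.48, 0.50 and 0 CPM in BSA 36 h (edgeR adjusted p = 0.0958). The pericyte list, for the cells that wrap small vessels, shares Acta2, Myh11, Cnn1 and Tagln with the basal and myoepithelial list. Its summed level overlapped, at 3830 to 4977 CPM in BSA 72 h and 2769 to 3842 CPM in BSA 36 h. The part of each cell type in that sum was not tested. Of the 12 tested genes of the pericyte list, 1 rose. That gene was Mcam, an adhesion protein of vessels and smooth muscle, at 21.9, 23.6 and 42.0 CPM in BSA 72 h and 7.08, 12.9 and 9.46 CPM in BSA 36 h (log2 1.57 ± 0.27, edgeR adjusted p = 0.0313).

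Of 19 fibroblast genes tested, 2 rose, 0 fell and 11 were higher without overlap, against 14.3% of all tested genes. The list median was 0.93. Col5a1, a fibril collagen chain, stood at 18.01, 18.4 and 21.3 CPM in BSA 72 h and at 5.83, 8.74 and 6.78 CPM in BSA 36 h (log2 1.43 ± 0.27, edgeR adjusted p = 0.0313). Col14a1, a fibril-associated collagen, stood at 44.1, 38.5 and 46.8 CPM in BSA 72 h and at 12.2, 20.6 and 20.99 CPM in BSA 36 h (log2 1.27 ± 0.23, edgeR adjusted p = 0.0313). The list's summed level overlapped, at 370 to 588 CPM in BSA 72 h and 241 to 404 CPM in BSA 36 h. Of 21 macrophage genes tested, 0 rose, 1 fell and 14 were higher without overlap, with a list median of 0.99. The one that fell was Cd163, a haemoglobin scavenger receptor, at 0.31, 0 and 0.40 CPM in BSA 72 h and 2.2, 1.68 and 2.74 CPM in BSA 36 h (edgeR adjusted p = 0.0482). Lyz2, a lysozyme of myeloid cells, stood at 252, 265 and 213 CPM in BSA 72 h and 66.4, 49.0 and 85.6 CPM in BSA 36 h (edgeR adjusted p = 0.0605). Red cell and lymphocyte lists held no called gene. The part of these cell markers in the other results was not tested.

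**Figure D2:**
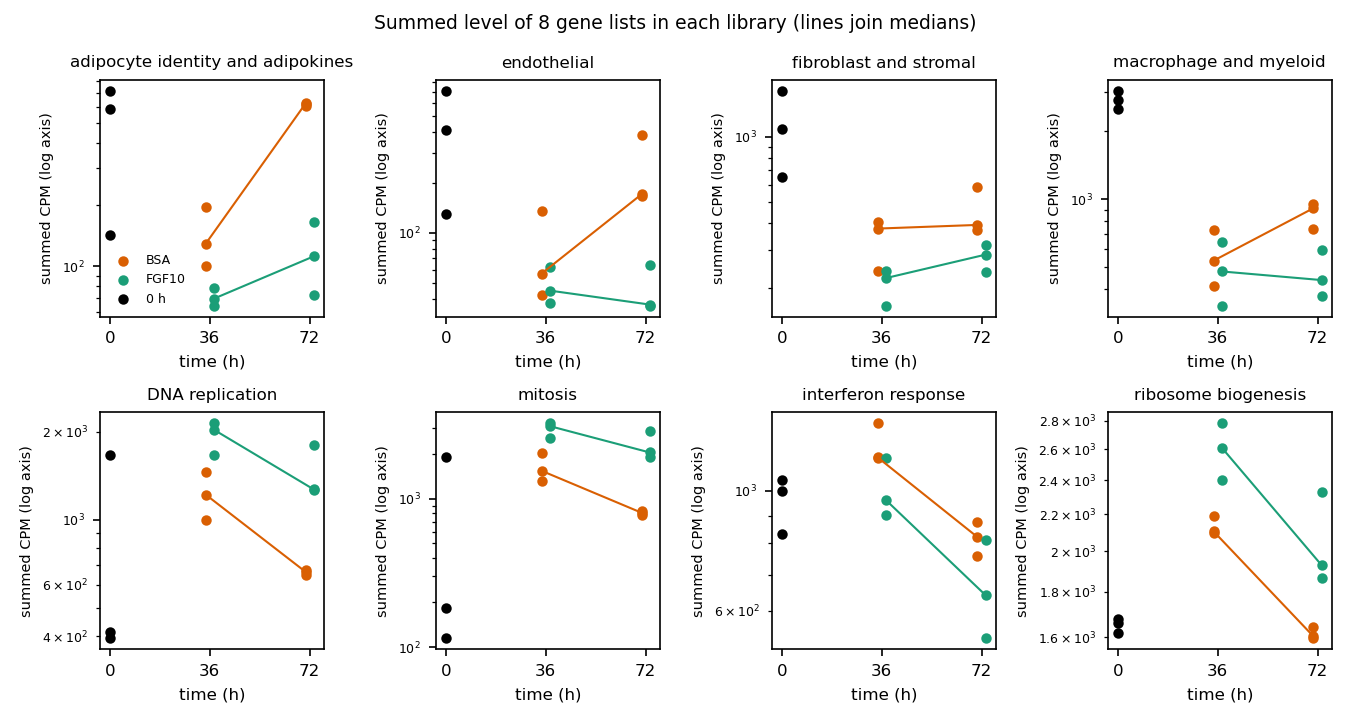
Summed level (CPM, log axis) of 8 gene lists in each library by time (h), with BSA, FGF10 and 0 h libraries in separate colours and lines joining the medians of each arm. In the adipocyte panel the BSA libraries sit at 605 to 623 CPM at 72 h and 99.9 to 194 CPM at 36 h.

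Among secreted and matrix genes, Wfdc18, a secreted protein of the WAP family expressed in mammary epithelium, stood at 11828, 12033 and 7968 CPM in BSA 72 h and at 4589, 3678 and 3646 CPM in BSA 36 h, with no overlap (log2 1.42 ± 0.27, edgeR adjusted p = 0.0323). Wfdc17, of the same family, stood at 39.1, 36.4 and 25.3 CPM in BSA 72 h and at 4.46, 4.87 and 4.40 CPM in BSA 36 h (log2 2.87 ± 0.45). Matn4, a matrix adaptor protein, stood at 62.4, 64.4 and 61.3 CPM in BSA 72 h and 16.8, 10.1 and 11.5 CPM in BSA 36 h (log2 2.29 ± 0.43). These 3 genes rose, and in each the lowest BSA 72 h library lay above the highest BSA 36 h library. Dmkn, an epidermal secreted protein, rose by 2.24 ± 0.39 on the log2 scale. Itga11, a collagen-binding integrin chain, rose by 2.03 ± 0.40. Mmp2, a gelatinase that cuts collagen, rose by 1.40 ± 0.29.

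Further genes rose. Slc40a1, the iron exporter ferroportin, stood at 90.6, 81.5 and 109 CPM in BSA 72 h and 20.99, 34.9 and 36.0 CPM in BSA 36 h (log2 1.61 ± 0.23, edgeR adjusted p = 0.0225). Nos2, the inducible nitric oxide synthase, stood at 8.67, 8.54 and 8.08 CPM in BSA 72 h and 0.95, 1.01 and 0.48 CPM in BSA 36 h (log2 3.36 ± 0.52, edgeR adjusted p = 0.0298). Acsl6, which activates long-chain fatty acids, stood at 26.6, 23.0 and 21.1 CPM in BSA 72 h and 3.87, 6.05 and 5.77 CPM in BSA 36 h. The groups did not overlap for any of these 3 genes. Bace2, an aspartyl protease of the membrane, stood at 140, 142 and 157 CPM in BSA 72 h and 26.2, 48.4 and 52.8 CPM in BSA 36 h. Abat, which breaks down GABA, rose by 1.65 ± 0.24 on the log2 scale, and Atp6v0a4, a proton pump subunit, by 1.69 ± 0.29. Slc41a3, of a magnesium transporter family, rose by 2.2 ± 0.44, and Agt, the angiotensin precursor, by 2.78 ± 0.56. Brinp1 rose by 2.39 ± 0.41 and Pdzk1ip1, a small membrane protein, by 1.64 ± 0.28. Pik3ip1, an inhibitor of PI3 kinase, was the one of 18 IGF and insulin genes that rose (log2 0.79 ± 0.14). The protein-coding gene 2310057J18Rik had the smallest p and was chosen after its values were seen. It stood at 126, 117 and 96.9 CPM in BSA 72 h and 2.97, 5.49 and 4.04 CPM in BSA 36 h (log2 4.76 ± 0.49).

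Other called genes are named after their values were seen where no list holds them. Sostdc1, a secreted antagonist of BMP and WNT, stood at 311, 329 and 322 CPM in BSA 72 h and at 131, 127 and 112 CPM in BSA 36 h (log2 1.38 ± 0.26). Hs3st1, which sulfates heparan sulfate, stood at 47.1, 42.2 and 39.0 CPM in BSA 72 h and at 14.04, 16.7 and 15.5 CPM in BSA 36 h (log2 1.47 ± 0.21, edgeR adjusted p = 0.0225). Tsc22d3, a glucocorticoid-induced factor also known as GILZ, stood at 33.4, 38.9 and 38.6 CPM in BSA 72 h and at 18.2, 24.3 and 19.5 CPM in BSA 36 h (log2 0.84 ± 0.16). None of these groups overlapped. Cd248, endosialin of stromal and perivascular cells, stood at 2.57, 2.47 and 3.41 CPM in BSA 72 h and at 0.54, 0.56 and 0.42 CPM in BSA 36 h (log2 2.46 ± 0.46). Nrros, a regulator of TGF-beta activation in myeloid cells, stood at 3.80, 4.66 and 6.12 CPM in BSA 72 h and at 0.59, 1.01 and 0.71 CPM in BSA 36 h (log2 2.64 ± 0.54). Pmp22, a myelin protein that is also made outside nerve, was the called gene of 6 tested nerve genes (log2 1.08 ± 0.19), and its list median was 0.04. Of the 85 called genes, 21 had a mean under 5 CPM in both groups, Cd248 among them.

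**Figure D3:**
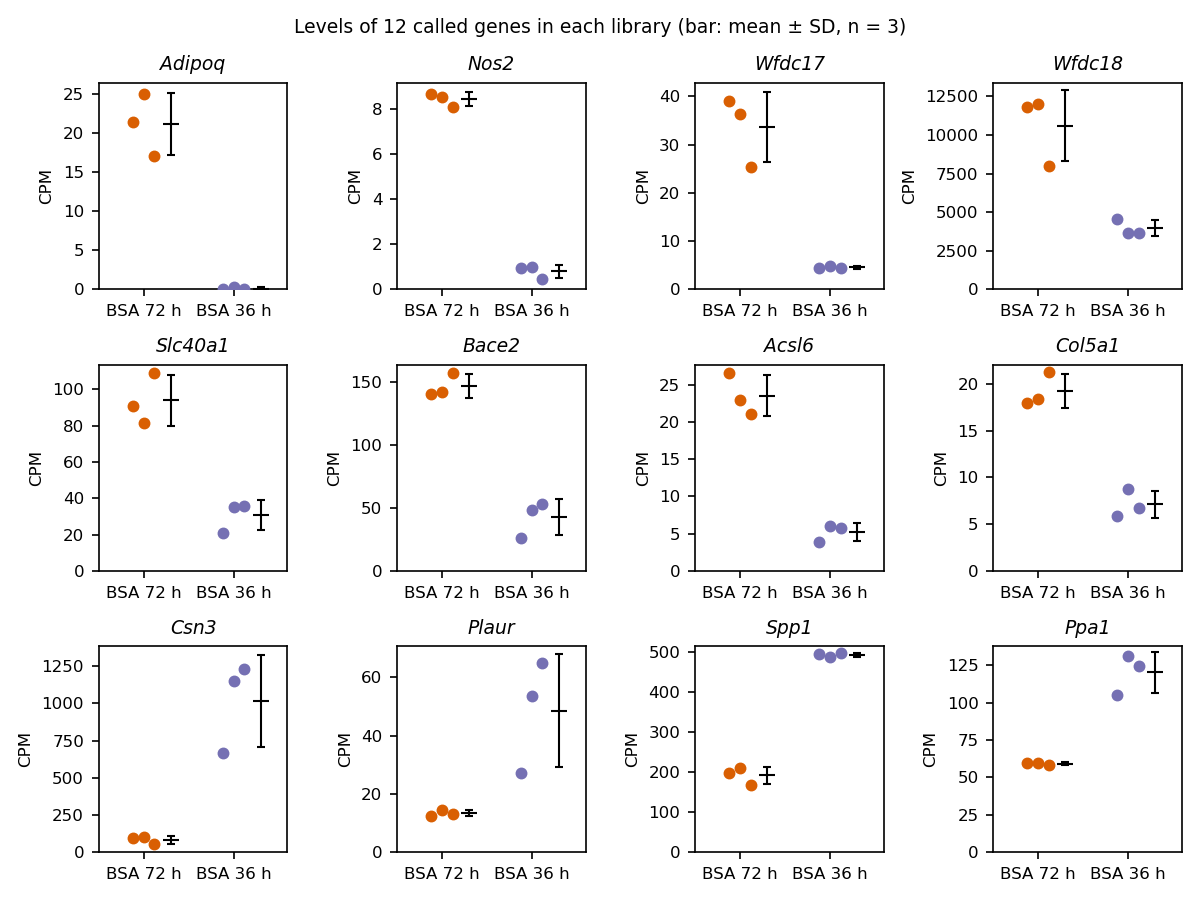
Level (CPM) of 12 called genes in each library, with BSA 72 h at left and BSA 36 h at right and bars for mean ± SD (n = 3 each). In all 12 panels the groups do not overlap, as for Csn3 at 54.2 to 104 CPM in BSA 72 h and 667 to 1232 CPM in BSA 36 h.

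A milk protein gene fell. Csn3, kappa casein, stood at 93.7, 104 and 54.2 CPM in BSA 72 h and at 667, 1152 and 1232 CPM in BSA 36 h (log2 -3.60 ± 0.57, edgeR adjusted p = 0.0313). Every BSA 72 h library lay far under every BSA 36 h library. It was the one gene called of 15 tested luminal progenitor and alveolar genes. The list median was -0.21, and it turned to 0.62 without BSA 36 h replicate 1, 0.09 with the replicate block and 0.22 with limma voom. Btn1a1, a milk fat globule protein chosen after its values were seen, had higher values, at 58.7, 61.3 and 47.2 CPM in BSA 72 h and 27.6, 35.0 and 38.1 CPM in BSA 36 h (edgeR adjusted p = 0.202).

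Plaur, Spp1 and Serpinb2 also fell. Plaur, the urokinase receptor of migrating cells, stood at 12.3, 14.4 and 13.3 CPM in BSA 72 h and at 27.2, 53.6 and 64.9 CPM in BSA 36 h (log2 -1.86 ± 0.31, edgeR adjusted p = 0.0313). Spp1, the matrix cytokine osteopontin, stood at 199, 210 and 169 CPM in BSA 72 h and at 494, 488 and 498 CPM in BSA 36 h (log2 -1.36 ± 0.28, edgeR adjusted p = 0.0499). Serpinb2, a urokinase inhibitor, had 1 count in BSA 72 h and 71 in BSA 36 h, 74.2-fold lower with a 95% counting interval of 12.9 to 2971. Fosl1, an AP-1 subunit, did not pass the test, at 0.51, 0.41 and 0.58 CPM in BSA 72 h and 1.43, 3.70 and 4.22 CPM in BSA 36 h (edgeR adjusted p = 0.0543). Smaller falls followed. Ppa1, a pyrophosphatase, stood at 59.6, 59.9 and 58.3 CPM in BSA 72 h and 105, 131 and 125 CPM in BSA 36 h (log2 -1.02 ± 0.19). Ppif, a mitochondrial cyclophilin, fell by 0.84 on the log2 scale, Mrps22, of the mitochondrial ribosome, by 0.74, Stip1, a chaperone adaptor, by 0.60 and Psmd13, of the proteasome, by 0.57. Esd, an esterase, fell by 0.81, Rtn1, a reticulon, by 1.36 and Apol9b by 2.60.

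At low levels, Il23a, a cytokine subunit, stood at 1.08, 0.94 and 1.44 CPM in BSA 72 h and at 5.47, 3.31 and 4.996 CPM in BSA 36 h (log2 -1.98 ± 0.36). H3c1, a replication-dependent histone gene, stood at 0.10, 0.24 and 0.06 CPM in BSA 72 h and at 1.55, 1.68 and 1.25 CPM in BSA 36 h (log2 -3.44 ± 0.59). Both fell, with no overlap between groups. In the core histone list, 17 of 18 tested genes were lower and 9 did not overlap, with 0 calls and a median of -0.85. Over all tested genes, 16.5% were lower without overlap.

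Of the 26 genes that fell, 9 were annotated as pseudogenes, 34.6%, against 9.53% of tested genes. Pseudogene counts are uncertain because they share reads with their parent genes. Rps2-ps10 stood at 107, 107 and 101 CPM in BSA 72 h and 170, 200 and 173 CPM in BSA 36 h, while its parent Rps2, a ribosomal protein gene, stood at 175, 202 and 182 CPM in BSA 72 h and 301, 310 and 277 CPM in BSA 36 h (edgeR adjusted p = 0.0605). Histone H3c1, Try5 and Apol9b also have close copies and are uncertain in the same way.

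Proliferation genes were lower as a block but none passed the test. In DNA replication, 30 of 30 genes were lower in BSA 72 h and 29 did not overlap, where 16.5% of all tested genes were lower without overlap, and the list median was -0.91. In mitosis, 30 of 30 were lower without overlap, with a median of -1.02. With the replicate block the mitosis and DNA replication medians were -0.47 and -0.50. Without BSA 36 h replicate 1 they were -0.79 and -0.75. The summed mitosis level was 776 to 828 CPM in BSA 72 h and 1327 to 2028 CPM in BSA 36 h. Mki67, a marker of cycling cells, stood at 22.8, 24.4 and 21.2 CPM in BSA 72 h and at 59.8, 34.7 and 41.8 CPM in BSA 36 h (edgeR adjusted p = 0.550). Aurka, a mitotic kinase, stood at 19.1, 19.9 and 17.4 CPM in BSA 72 h and at 52.8, 34.5 and 45.6 CPM in BSA 36 h (edgeR adjusted p = 0.176). Called mitosis genes numbered 0 in the edgeR fit to all 5 groups, 27 with the BSA groups alone, 16 without 0 h replicate 1, 13 by limma voom and 1 by DESeq2. Called DNA replication genes numbered 0 in the edgeR fit to all 5 groups, 23 with the BSA groups alone, 20 without 0 h replicate 1, 25 by limma voom and 0 by DESeq2. The mitosis sum of the 0 h libraries was 1919 CPM in replicate 1 and 183 and 115 CPM in the others.

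The ribosome biogenesis, ribosomal protein, oxidative phosphorylation and interferon lists had medians below 0, with 0 calls in the main edgeR fit to all 5 groups. In that order, edgeR called 9, 5, 3 and 13 members lower with the BSA groups alone. Without 0 h replicate 1 it called 4, 2, 1 and 3 lower. Over all tested genes, 16.5% were lower without overlap. All 30 ribosome biogenesis genes were lower and 25 did not overlap, with a median of -0.37. Fbl, the rRNA methylase fibrillarin, stood at 21.4, 20.7 and 22.7 CPM in BSA 72 h and 34.1, 32.6 and 34.0 CPM in BSA 36 h (edgeR adjusted p = 0.0619). All 28 ribosomal protein genes and all 24 oxidative phosphorylation genes tested were lower, with medians of -0.37 and -0.27. Of 30 interferon response genes, 28 were lower and 23 did not overlap, with a median of -0.73. Irf7, an interferon regulatory factor chosen after its values were seen, stood at 34.3, 37.1 and 25.3 CPM in BSA 72 h and 101, 101 and 68.0 CPM in BSA 36 h (edgeR adjusted p = 0.154). The inflammatory list had a median of -1.08 that turned to 0.27 without BSA 36 h replicate 1 and to 0.04 with the replicate block, and was -0.09 with limma voom. In that list Saa3, an acute phase protein also chosen after its values were seen, stood at 1.85, 1.47 and 2.25 CPM in BSA 72 h and 144, 0.84 and 0.71 CPM in BSA 36 h. Only Nos2 of its 27 tested genes passed the test.

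Epithelial identity lists had medians near 0. The luminal list had a median of -0.09 and the epithelial junction list of -0.04, with 0 calls in either in the main edgeR fit. Of 16 luminal genes, 1 was higher and 3 were lower without overlap, Epcam and Krt8 among the lower. With limma voom 3 luminal genes were called lower. Cdh1, E-cadherin, stood at 203, 214 and 210 CPM in BSA 72 h and at 225, 194 and 235 CPM in BSA 36 h. Fgfr2, the epithelial FGF10 receptor, stood at 70.2, 75.2 and 77.7 CPM in BSA 72 h and at 77.5, 68.8 and 67.7 CPM in BSA 36 h. Both groups overlapped for each gene. Of 20 basal and myoepithelial genes, 16 were higher, 8 without overlap (14.3% over all tested genes), with a median of 0.25. Among 24 EMT genes, 18 were higher and 6 lower, 11 and 3 of them without overlap, with a median of 0.32. Over all tested genes these shares were 14.3% and 16.5%. The summed level of the EMT list was 2160 to 2741 CPM in BSA 72 h and 1253 to 1830 CPM in BSA 36 h. The 1 called gene of the list was Mmp2, which rose. Zeb2, an EMT factor that is also expressed in stroma and macrophages, stood at 5.49, 4.36 and 8.49 CPM in BSA 72 h and 1.31, 2.86 and 1.19 CPM in BSA 36 h (edgeR adjusted p = 0.0958).

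Lists of signalling and differentiation held few calls. Over all tested genes, 14.3% were higher and 16.5% lower without overlap. Of 18 IGF and insulin genes, 11 were higher without overlap and the median was 0.33. Igfbp5, an IGF-binding protein of mammary involution, stood at 1865, 1803 and 1583 CPM in BSA 72 h and at 727, 809 and 669 CPM in BSA 36 h (edgeR adjusted p = 0.0651). Of 19 squamous genes, 7 were higher and 2 lower without overlap, 0 were called and the median was 0.48. Of 14 NOTCH genes, 7 were higher without overlap, 0 were called and the median was 0.27. Of 17 chemokines, 5 were higher and 4 lower without overlap, 0 were called and the median was 0.05. The 2 with the smallest p went opposite ways. Ccl5 was lower in BSA 72 h (edgeR adjusted p = 0.126), with log2 differences of -1.36 to -0.74 over the alternatives. Cxcl13, the B-cell attractant, stood at 271, 252 and 196 CPM in BSA 72 h and at 12.5, 52.3 and 31.6 CPM in BSA 36 h (edgeR adjusted p = 0.0568). Of 27 FGF and ERK feedback genes, 1 was higher and 9 were lower without overlap, 0 were called and the median was -0.24. Etv4, an ETS factor induced by FGF signalling, stood at 1.23, 1.71 and 0.98 CPM in BSA 72 h and at 3.57, 3.47 and 3.15 CPM in BSA 36 h (edgeR adjusted p = 0.0842). The fatty acid synthesis and cholesterol synthesis lists had medians of 0.01 and -0.07, with 0 calls in either.

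**Figure D4:**
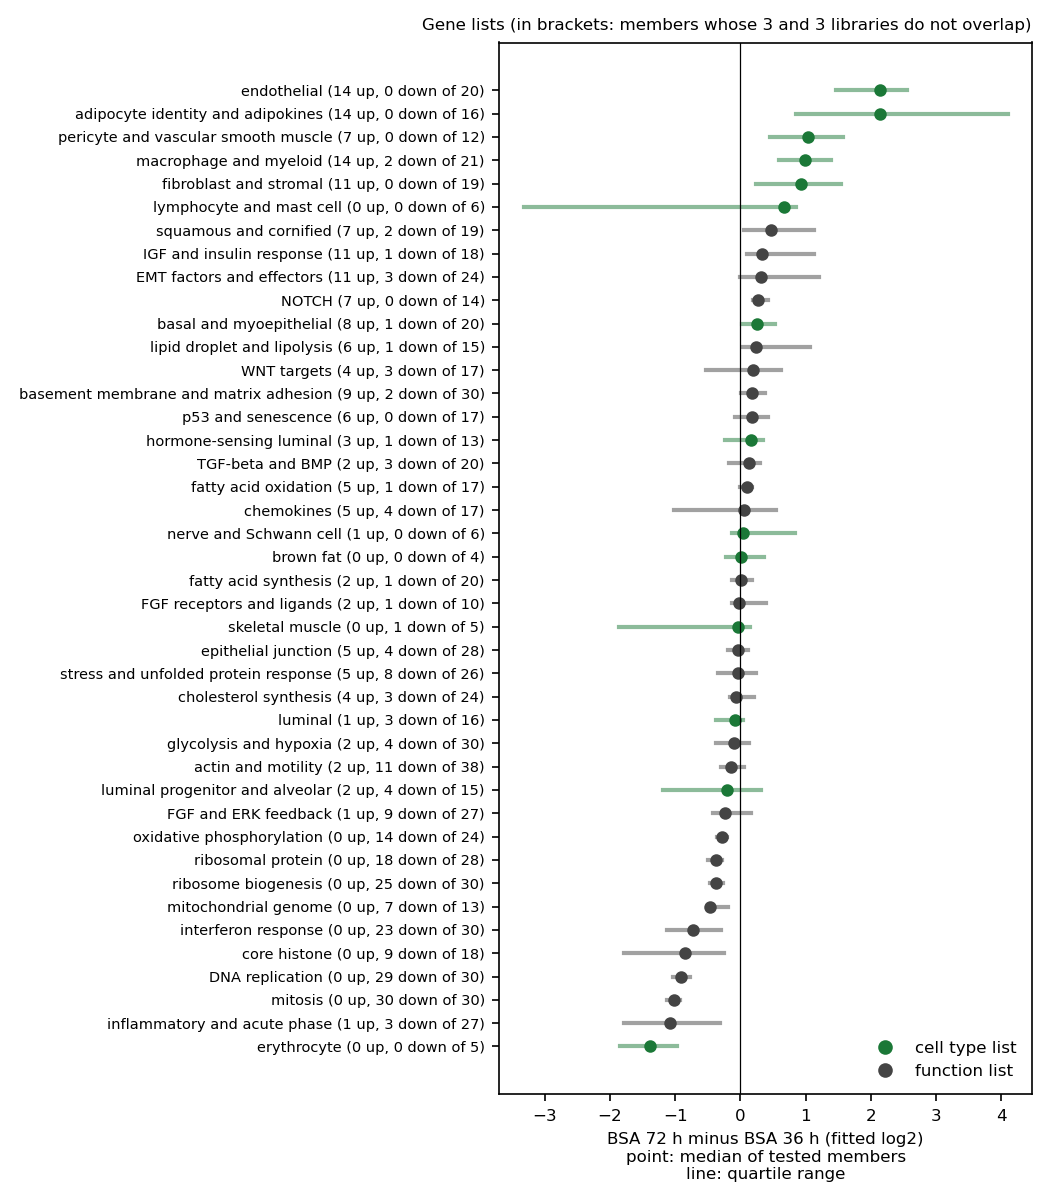
Median (point) and quartile range (line) of the log2 difference between BSA 72 h and BSA 36 h for 42 gene lists, with members that did not overlap between the groups counted in brackets. Endothelial and adipocyte lists are at the top with medians of 2.14, and mitosis lies near the bottom at -1.02.

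The BSA 72 h levels were also set beside the 0 h levels. Of the 59 that rose, BSA 72 h libraries lay above all 0 h libraries in 43, below all in 4 and overlapped in 12. Of the 26 that fell they lay above in 7, below in 11 and overlapped in 8. Over all tested genes the counts were 3978, 4263 and 9899. The same BSA 72 h values chose the 59 and the 26, so their counts are fixed in part by that choice. No conclusion is drawn from the comparison with all tested genes. For Fabp4 the 0 h level was 525, 444 and 57.1 CPM, so BSA 72 h lay within it, while Adipoq stood at 0.72, 0 and 0 CPM at 0 h. Spp1 stood at 0.76, 0.29 and 0.17 CPM at 0 h, far under both BSA groups.

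The late change with FGF10 beads shared no library with the BSA change, and most BSA calls pointed the same way in it. Of the 85, 80 had the same sign with FGF10, 94.1%, against 66.7% of all tested genes. With FGF10, 346 genes passed the test, 1.91% of genes tested. Called in both arms were 49 genes, 57.6% of the BSA calls and 14.2% of the FGF10 calls, 41 higher and 8 lower. Both changes came from 1 fit with the same estimate of spread for each gene, so the calls of the arms are not independent. Csn3 changed by -3.60 ± 0.57 with BSA and -3.58 ± 0.57 with FGF10 on the log2 scale. Wfdc18 rose by 1.42 ± 0.27 with BSA and 1.92 ± 0.27 with FGF10.

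The arms share replicate numbers, and replicate 1 at 36 h stood apart in both. Its inflammatory list sum was 19805 CPM with BSA and 16913 CPM with FGF10, against 2785 to 4038 CPM in the other 36 h libraries. Its hormone-sensing list sum was 2609 CPM with BSA and 2960 CPM with FGF10, against 4972 to 8492 CPM in the others. Deviations from the group mean correlated between arms at 0.45 for replicate 1 and 0.29 for replicate 3 at 36 h, and at 0.00 to 0.08 for same-numbered libraries at 72 h. The part of shared replicates in the likeness of the arms was not tested.

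No gene passed the test of a difference between the arms' changes in edgeR, where 0% of genes tested were called and the lowest adjusted p was 0.523. An unadjusted p under 0.05 was found for 998 genes, 5.50% of those tested, 22 of them among the 85, and DESeq2 called 18 genes. Acsl6 rose by 2.17 ± 0.34 with BSA and by a fitted 5.94 ± 0.65 with FGF10 (edgeR adjusted p of the difference = 0.563). It had 128 counts in FGF10 72 h and 2 in FGF10 36 h, so the FGF10 value rests on a group near 0. Nos2 changed by 3.36 ± 0.52 with BSA and 0.83 ± 0.62 with FGF10 (edgeR adjusted p of the difference = 0.782). Col5a1 changed by 1.43 ± 0.27 with BSA and 0.12 ± 0.27 with FGF10 (edgeR adjusted p of the difference = 0.753). The adipocyte list had a median of 2.14 with BSA and 0.54 with FGF10, and the endothelial list 2.14 with BSA and 0.17 with FGF10. The macrophage list had medians of 0.99 with BSA and -0.28 with FGF10. DNA replication and mitosis lists were lower at 72 h in both arms. Their medians were -0.91 and -1.02 with BSA and -0.49 and -0.34 with FGF10. Interferon and ribosome biogenesis medians were -0.73 and -0.37 with BSA and -0.59 and -0.31 with FGF10. These list differences were not tested.

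**Figure D5:**
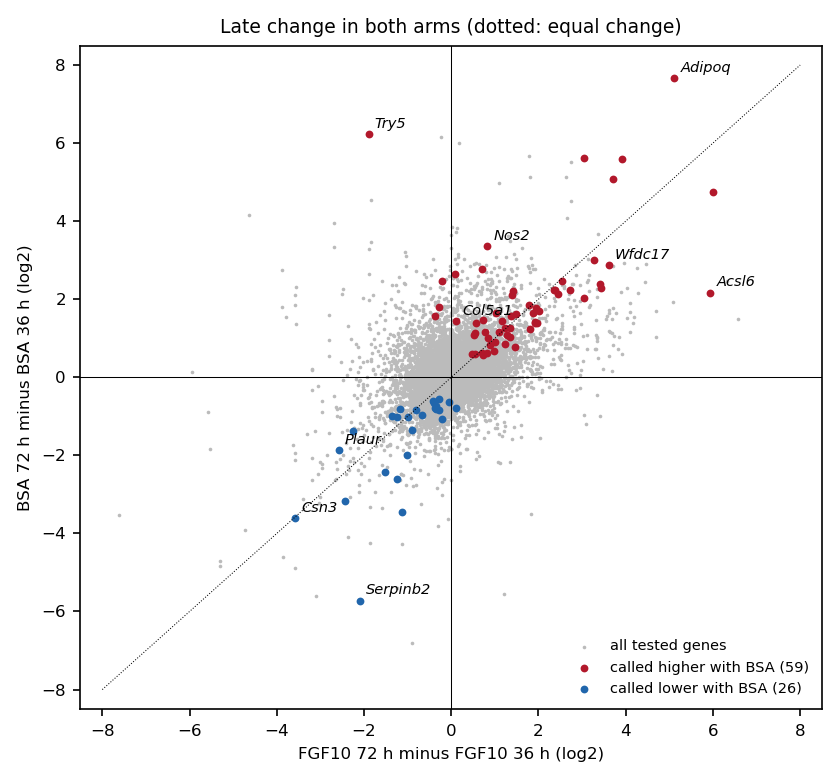
Late change with BSA beads (log2, vertical axis) against late change with FGF10 beads (log2, horizontal axis), with all tested genes in grey, the 59 genes called higher with BSA in red and the 26 called lower in blue. Of the 85, 80 have the same sign in both arms.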

How the data were processed

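Counting had been done with featureCounts 2.0.1 on read pairs, over exons, by gene name and ignoring strand, and the resulting whole-number counts were used as deposited, per the file headers. Overlapping, antisense and near-identical genes are therefore uncertain. The submitters' processing notes list HISAT2 2.2.1, cutadapt 1.9.1, FastQC, HTSeq, DESeq2 and the build GRCm39.

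Of 54456 genes, 36316 were removed by filterByExpr (minimum count 10, minimum total 15). Counts were scaled by TMM and given as CPM. The test was edgeR 4.0.16's robust quasi-likelihood F test in R 4.3.3, with 1 fit to 5 groups and 15 libraries and 10 residual degrees of freedom, with Benjamini-Hochberg adjustment over 18140 genes at 0.05. Errors of log2 differences are standard errors. The alternatives used limma 3.58.1 and DESeq2 1.42.0.

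Named genes were the 15 largest rises and 15 largest falls among called protein-coding genes whose libraries did not overlap and whose higher mean reached 5 CPM (12 falls qualified, and 1 of them is not reported here). To these were added up to 6 called genes per list, or the 2 with the smallest p, and a fixed marker panel. Other genes named were chosen after their values were seen. Members and lists were chosen with earlier results of these data known. Lists are described by counts and medians only.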

Additional observations from a re-analysis of the deposited data

How the results depend on the processing

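The count of 85 called genes (59 higher, 26 lower) was 217 (121 and 96) with no filter, 1182 (442 and 740) with the BSA groups alone, 2683 (1168 and 1515) with limma voom and 584 (316 and 268) with DESeq2. It was 538 (191 and 347) without 0 h replicate 1 and 0 (0 and 0) with replicates 2_1 and 2_2 summed. Leaving out 1 BSA library gave 0 to 30 calls (0 to 18 higher, 0 to 12 lower). DESeq2 size factors gave 73. With the replicate block 107 were called, 54 of them among the 85. Deviations of same-numbered BSA 72 h and BSA 36 h libraries correlated at -0.05, -0.09 and -0.09. With 3 libraries per group, and number 2 shared by replicates 2_1 and 2_2, these values cannot settle whether the numbers pair the libraries. The difference between arms had 0 calls, against 1 with the replicate block and 18 with DESeq2. All 85 kept their direction under the 15 alternatives, most of which could hardly have turned it because the groups did not overlap. Of 1274 gene values, 642 kept their call and 632 lost it, and the cause was not tested. Cdh2, not called, had a log2 difference of -0.19, against 0.25 with the replicate block, 0.15 with limma voom and -0.49 to 0.24 on leaving out 1 library. Krt5, at 0.03, was -0.0048 to 0.070 on leaving out 1 library. Genes near 0 to 5 counts in a group are limited by depth.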
